A study of Mus musculus with 3 samples.

Results

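The NRF2 antioxidant response was described through 10 named genes, chosen by symbol as the transcription factor NRF2 (Nfe2l2), its inhibitor Keap1, and the target and antioxidant genes Hmox1, Gclm, Gclc, Srxn1, Txnrd1, Slc7a11, Sod2 and Prdx1. They were chosen with earlier results of these data known, and all 10 were found among the 22238 genes that were listed in every library. RNA was sequenced from 3 cell populations of wild-type mice on the C57BL/6J background at days 14 to 15 of experimental autoimmune encephalomyelitis (EAE), which models multiple sclerosis. EAE was induced with a MOG peptide in complete Freund's adjuvant, and 250 ng of pertussis toxin was given at 2 and again at 24 hours, so that all 3 populations came from immunized animals. Bone marrow monocytes (BM-Mono) were sorted as CD45+ CD11b+ Ly6Chi cells lacking Ly6G and CD11c. Spinal cord monocytes (SC-Mono) were CD45+ CD11b+ CD64+ Ly6Chi cells lacking Ly6G, and monocyte-derived antigen-presenting cells (SC-APC) carried the same markers with low or absent Ly6C. Spinal cords were digested with collagenase and DNase and run on a Percoll gradient, whereas bone marrow was flushed and enriched for monocytes. Tissue and preparation therefore cannot be told apart in any comparison with BM-Mono. One label of the SC-APC library names bone marrow as its source, whereas its title and its tissue label name the spinal cord. Each population was 1 library pooled across mice from several experiments, so no difference between populations has a replicate check, no p-value is given, and every interval covers counting error only.

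NRF2 is a basic leucine zipper transcription factor that is held at a low level by KEAP1, a substrate adaptor of the CUL3 ubiquitin ligase. Oxidants and electrophiles modify cysteines of KEAP1, NRF2 then escapes degradation, pairs with a small MAF protein and binds antioxidant response elements, whereas the heme-sensing factor BACH1 occupies the same elements as a repressor. The targets supply glutathione, thioredoxin, NADPH and heme breakdown, and in macrophages they act against the oxidants that these cells produce themselves. Because NRF2 is controlled largely at the protein level, its mRNA is not a measure of its activity.

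The promoters of these genes were examined for the core of the antioxidant response element, TGACNNNGC, and for the AP-1 motif TGANTCA, on both strands. RefSeq windows on GRCm38.p6, from 250 bases before to 50 bases after a transcription start, were read for 8 of the 10 genes, without Hmox1 and Gclc. The core was present in 5 of these 8 genes and in 14.0% of all 27025 genes with a window, and AP-1 in 2 of the 8 and in 8.97% of all. The members were named as NRF2 genes, so this count is a description. The stretches that hold the matches are shown because they place the motif in the genes whose levels follow, with the matched letters in capitals, read 5′ to 3′ on the strand of the gene.
Nfe2l2: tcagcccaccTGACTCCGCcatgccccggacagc
Gclm: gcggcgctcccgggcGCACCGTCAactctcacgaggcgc
Prdx1: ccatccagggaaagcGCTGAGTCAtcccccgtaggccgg
Txnrd1: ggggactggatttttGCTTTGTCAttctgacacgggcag
Srxn1 core: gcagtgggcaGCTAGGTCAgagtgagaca
Srxn1 AP-1 distal: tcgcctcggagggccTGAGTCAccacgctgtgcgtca
Srxn1 AP-1 proximal: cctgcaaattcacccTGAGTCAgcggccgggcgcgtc
Counted from 0 at the transcription start, the core began at position -240 in Nfe2l2 (chr2:75704880-75704913, minus strand), at -134 in Gclm (chr3:122245408-122245446, plus strand) and at -133 in Prdx1 (chr4:116685451-116685489, plus strand). In Txnrd1 it began at -92 of the middle one of 3 RefSeq starts (chr10:82859099-82859137, plus strand). In Srxn1 it began at 28, after the start (chr2:152105542-152105570, plus strand), with the AP-1 matches at -102 (chr2:152105407-152105443) and -45 (chr2:152105464-152105500). Read on with the gc that follows it, the Srxn1 match at -45 differs from TGACNNNGC only by a G after TGA. It was therefore not counted as a core. The core in Gclm, Prdx1, Txnrd1 and Srxn1 lay on the opposite strand, and in Prdx1 its letters overlap an AP-1 match, beside another AP-1 match at -237. No match was found in the windows of Keap1, Slc7a11 and Sod2, which says only that these letters were not in these windows.

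The estimated reads of the common genes summed to 32115707 in BM-Mono, 26116588 in SC-Mono and 28209327 in SC-APC. Levels are given as TPM, which is corrected for gene length and was rescaled to the same sum over the common genes. Log2 changes are log2 fold changes of reads scaled by median-of-ratios size factors, with a 98% interval, and length-corrected reads are reads divided by the deposited effective length. A gene was called higher or lower where this interval lay beyond a 2-fold change and either library had more than 3 TPM (an active gene). When total reads replaced the size factors, all log2 ratios against BM-Mono shifted by -0.18 for SC-Mono and -0.14 for SC-APC, and on TPM the median active gene shifted by -0.26 and -0.29. All 8 monocyte markers were above 3 TPM in every library. The 10 neutrophil markers summed to 7953, 1198 and 1294 TPM in BM-Mono, SC-Mono and SC-APC, with 8, 8 and 7 of them above 3 TPM and none at 0 reads. S100a8, S100a9 and Mmp8 made up most of each sum. Only Cxcr2 was higher in SC-Mono (9.10 TPM) than in BM-Mono (2.56 TPM), and in SC-APC only Cxcr2 and Ltf were above BM-Mono. The 8 microglia markers summed to 226, 488 and 964 TPM, with 2, 7 and 8 above 3 TPM, and Sall1 and Slc2a5 were at 0 in the bone marrow. The 6 T cell markers summed to 0.507, 43.3 and 64.8 TPM. The 6 erythroid markers summed to 0.573, 77.8 and 24.9 TPM, with Klf1 and Alas2 at 0 reads in BM-Mono. The part of these cells in the results below was not tested, and in bulk RNA fewer cells of a type and less RNA per cell cannot be told apart.

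**Figure D1:**
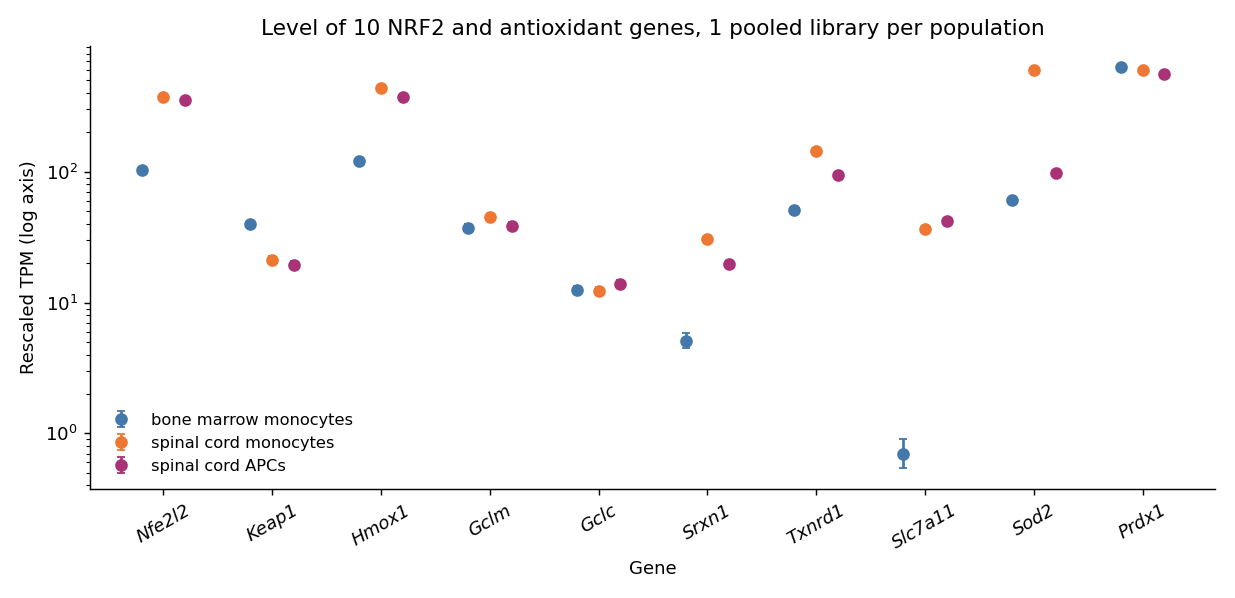
Level of each of the 10 genes as rescaled TPM on a log axis, with 1 point per pooled library and 95% Wilson intervals that cover counting error only. Nfe2l2, Hmox1, Srxn1, Txnrd1, Slc7a11 and Sod2 lie higher in SC-Mono than in BM-Mono, whereas Gclm, Gclc and Prdx1 lie close together in all 3 libraries.

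All 10 genes were active in every comparison. From BM-Mono to SC-Mono, 6 of the 10 genes were called higher (Nfe2l2, Hmox1, Srxn1, Txnrd1, Slc7a11 and Sod2) and 0 lower. Of all 10072 active genes, 13.8% were called higher and 10.7% lower, or 24.4% in either direction. With total reads as the scale the split of all active genes was 1239 higher and 1394 lower, against 1386 and 1073 here. The median log2 change was 1.92 over the 10 genes and -0.15 over all active genes. The remaining 4 genes, Keap1, Gclm, Gclc and Prdx1, stayed within a 2-fold change. The plot of fold changes shows these separate groups.

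**Figure D2:**
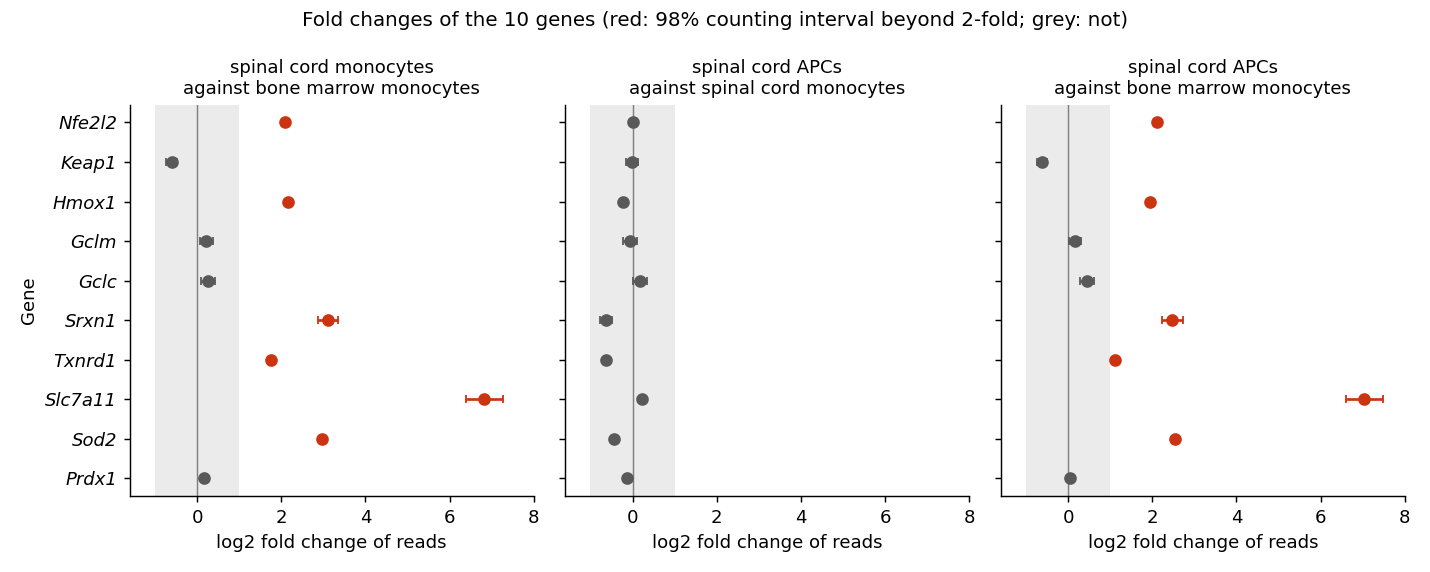
Log2 changes of reads for the 10 genes in the 3 comparisons, with 98% intervals of counting error. The grey band marks a 2-fold change and red points are called. In the middle panel all 10 genes lie inside the band, between -0.64 and 0.22.

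Among the regulators, Nfe2l2 (ENSMUSG00000015839.6, chromosome 2 of GRCm38 from 75675513 to 75704641, minus strand) had 4825 reads in BM-Mono, 14634 in SC-Mono and 16545 in SC-APC. Its level was 103 TPM (95% interval 99.9 to 106), 373 TPM (95% interval 367 to 379) and 357 TPM (95% interval 351 to 362). Both spinal cord libraries were thus high and the bone marrow library low. The log2 change of SC-Mono over BM-Mono was 2.08 (98% interval 2.03 to 2.14), which placed Nfe2l2 at rank 890 of 10072 active genes. Keap1 (ENSMUSG00000003308.15, chromosome 9 from 21229730 to 21239361) had its highest value in BM-Mono, with 2331, 1098 and 1211 reads, or 39.9, 21.3 and 19.5 TPM. Its log2 change of -0.60 (98% interval -0.73 to -0.48) was below 0 but not called. Under the other scalings and on TPM it lay between -0.90 and -0.61.

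Slc7a11 encodes the light chain of the cystine-glutamate exchanger, which imports the cystine that limits glutathione synthesis. It showed the largest fold change of the 10 genes in this comparison. Slc7a11 (ENSMUSG00000027737.10, chromosome 3 from 49892526 to 50443614, minus strand) had 58 reads in BM-Mono, 4712 in SC-Mono and 6099 in SC-APC. In TPM these were 0.697 (95% interval 0.540 to 0.901), 36.4 (95% interval 35.4 to 37.4) and 42.4 (95% interval 41.4 to 43.5). The bone marrow level was the only value of the 10 genes under 3 TPM in any library. The log2 change was 6.81 (98% interval 6.39 to 7.27), at rank 177 of 10072. Its effective length was 3868 bases in the bone marrow library and 6682 bases in SC-Mono, and on length-corrected reads the log2 change was 5.92.

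Gclc and Gclm encode the catalytic and the modifier subunit of glutamate-cysteine ligase, the enzyme of the rate-limiting step of glutathione synthesis. Unlike Slc7a11, neither was called. Gclc (ENSMUSG00000032350.9, chromosome 9 from 77754535 to 77794485) had 847, 727 and 922 reads in BM-Mono, SC-Mono and SC-APC, or 12.5, 12.2 and 13.9 TPM. Gclm (ENSMUSG00000028124.15, chromosome 3 from 122245557 to 122270732) had 1064, 887 and 949 reads, or 37.3, 44.8 and 38.4 TPM. The first step gave log2 changes of 0.26 (98% interval 0.09 to 0.43) for Gclc and 0.22 (98% interval 0.07 to 0.37) for Gclm. With total reads as the scale these were 0.08 and 0.04, on TPM plus 1 that of Gclc was -0.04, and with size factors over all genes of both monocyte libraries that of Gclm was -0.03. Gclm was at 0.26 on TPM plus 1 and at 0.51 (98% interval 0.36 to 0.66) on length-corrected reads. Gclm thus had the core element in its promoter and a level that stayed within a 2-fold change.

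Txnrd1, Srxn1 and Prdx1 belong to the thioredoxin system. Thioredoxin reductase 1 regenerates thioredoxin from NADPH, peroxiredoxin 1 reduces peroxides, and sulfiredoxin returns overoxidized peroxiredoxin to use. Txnrd1 (ENSMUSG00000020250.10, chromosome 10 from 82833951 to 82897712) had 3085, 7448 and 5328 reads in BM-Mono, SC-Mono and SC-APC. Its levels were 50.6, 145 and 94.5 TPM, with a log2 change of 1.75 (98% interval 1.68 to 1.83) in the first step. Srxn1 (ENSMUSG00000032802.8, chromosome 2 from 152105516 to 152111376) had 235, 1451 and 1045 reads. It stood at 5.11 TPM (95% interval 4.50 to 5.81), 30.4 TPM (95% interval 28.9 to 32.0) and 19.6 TPM (95% interval 18.4 to 20.8), and rose by 3.10 (98% interval 2.87 to 3.35) on the log2 scale in the first step. For both genes SC-Mono were the highest library and BM-Mono the lowest. Prdx1 (ENSMUSG00000028691.12, chromosome 4 from 116685544 to 116700822) was abundant throughout, with 11660, 9411 and 9645 reads, or 632, 600.3 and 554 TPM. Its log2 change in the first step was 0.17 (98% interval 0.13 to 0.22). The sign was not stable, with -0.01 on total reads and -0.07 on TPM plus 1.

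Hmox1, heme oxygenase 1, degrades heme to biliverdin, carbon monoxide and iron. Hmox1 (ENSMUSG00000005413.8, chromosome 8 from 75093621 to 75100589) had 3386 reads in BM-Mono, 10843 in SC-Mono and 10343 in SC-APC. Its levels were 121 TPM (95% interval 117 to 126), 439 TPM (95% interval 430.5 to 447) and 376 TPM (95% interval 369 to 383). The spinal cord libraries were close together and the bone marrow library was low. The log2 change of the first step was 2.16 (98% interval 2.10 to 2.23), at rank 859. Hemoglobin is a source of heme, and the summed erythroid markers, given above, were likewise lowest in BM-Mono. Their part in the level of Hmox1 was not tested.

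Sod2 encodes the manganese superoxide dismutase of mitochondria, which is also a well-known target of NF-kappa B. Sod2 (ENSMUSG00000006818.5, chromosome 17 from 13006846 to 13040063) had 2392 reads in BM-Mono, 13459 in SC-Mono and 11093 in SC-APC. Its log2 change in the first step was 2.97 (98% interval 2.90 to 3.05) on reads and 3.55 on length-corrected reads. In TPM it stood at 61.1, 604 and 98.7, so that SC-APC were close to SC-Mono in reads and close to BM-Mono in TPM. The deposited effective length of Sod2 was 1833 bases in BM-Mono, 1150 bases in SC-Mono and 5394 bases in SC-APC, the largest gap of the 10 genes. GENCODE M21 annotates 8 transcripts of Sod2, of which 2 are protein-coding, with lengths of 451 and 5861 bases. The SC-APC values were made on a transcript set of 22242 genes and those of both monocyte libraries on 54432 genes. Levels per length of Sod2 in SC-APC are therefore not comparable with those of monocytes. The difference in transcript set coincides with every comparison that includes SC-APC. Its part in the reads and TPM of the other genes was not tested.

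**Figure D3:**
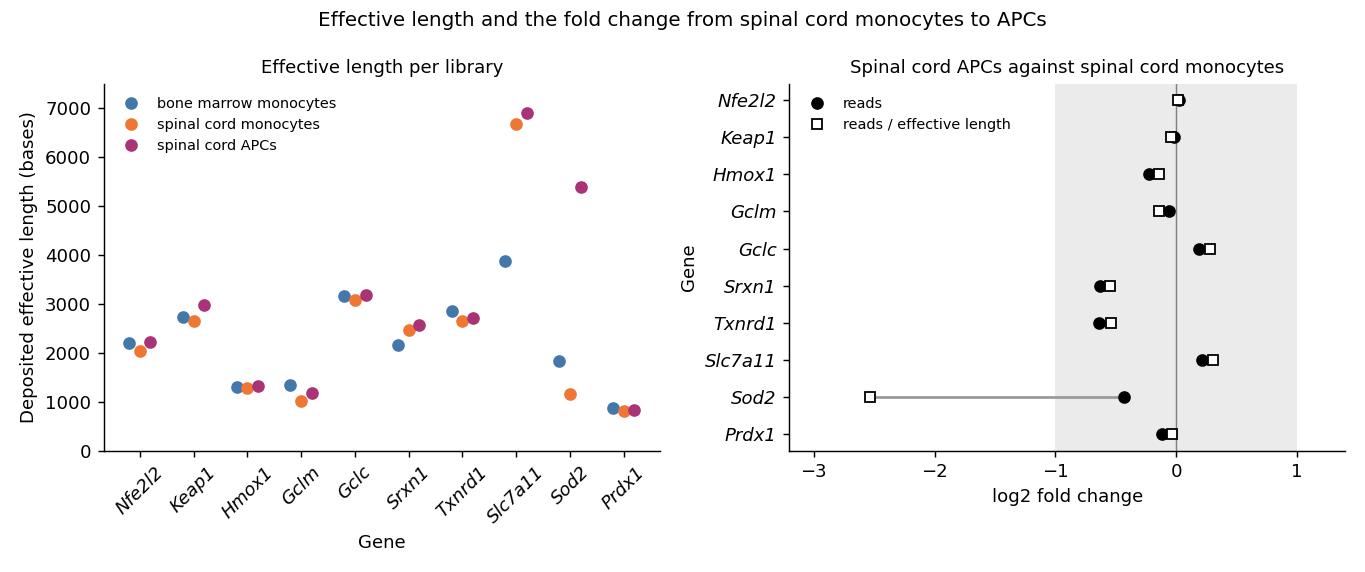
Left, the deposited effective length in bases of each gene in the 3 libraries. Right, the log2 change of SC-APC over SC-Mono on reads (filled circles) and on length-corrected reads (open squares), with the grey band at a 2-fold change. Sod2 moves from -0.44 to -2.53, and the other 9 genes keep inside the band on both scales.

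With the spread between libraries unknown, the calls rest on counting error. An assumed coefficient of variation of 0.4 between libraries left 3 of the 6 calls of the first step, on Srxn1, Slc7a11 and Sod2. The calls of Nfe2l2, Hmox1 and Txnrd1 were lost, and that of Txnrd1 was already lost at 0.2. Neutrophil markers were at 7953 and 1198 summed TPM in BM-Mono and SC-Mono, with Ly6g at 2.57 and 1.71 TPM. Cxcr2 went the other way, at 2.56 and 9.10 TPM.

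The second step, from SC-Mono to SC-APC, moved none of the 10 genes past the threshold. Among all 9734 active genes, 1.93% were called higher and 1.70% lower in SC-APC, or 3.63% in either direction. The median log2 change was -0.09 over the 10 genes and -0.04 over all active genes. Nfe2l2 and Keap1 were nearly level, with log2 changes of 0.02 (98% interval -0.02 to 0.06) and -0.02 (98% interval -0.16 to 0.12). Slc7a11 was at 0.22 (98% interval 0.15 to 0.28), Gclc at 0.19 (98% interval 0.02 to 0.35), Gclm at -0.06 (98% interval -0.22 to 0.10), Prdx1 at -0.12 (98% interval -0.17 to -0.07) and Hmox1 at -0.22 (98% interval -0.27 to -0.18). The most negative values were those of Txnrd1, at -0.64 (98% interval -0.70 to -0.58), and Srxn1, at -0.63 (98% interval -0.77 to -0.49). They ranked 8925 and 8884 of 9734 active genes. The intervals of both exclude 0 by counting error but lie within a 2-fold change. Sod2 was at -0.44 (98% interval -0.48 to -0.39) on reads, and on length-corrected reads it was at -2.53 and past the threshold. Microglia markers were at 488 summed TPM in SC-Mono and 964 in SC-APC.

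In SC-APC against BM-Mono, which share each library with 1 of the other comparisons, 6 of the 10 genes were called higher and 0 lower, beside 14.0% and 11.8%, or 25.8% in either direction, of 10190 active genes. The log2 changes were 7.03 for Slc7a11, 2.54 for Sod2, 2.47 for Srxn1, 2.10 for Nfe2l2, 1.94 for Hmox1 and 1.11 for Txnrd1. Keap1 was at -0.62, Gclc at 0.45, Gclm at 0.16 and Prdx1 at 0.05, and none of these was called. Txnrd1 was no longer called with total reads as the scale, at 0.98, and Sod2 no longer on length-corrected reads, at 1.02. On TPM plus 1 they were at 0.89 and 0.68. Slc7a11 was at 6.23 on length-corrected reads and at 4.68 on TPM plus 1. With an assumed coefficient of variation of 0.4 only Slc7a11 was still called.

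Ratios between genes of 1 library need no scaling between libraries. The TPM of Nfe2l2 was 2.58 times that of Keap1 in BM-Mono (95% interval 2.45 to 2.71), 17.5 times in SC-Mono (95% interval 16.5 to 18.6) and 18.3 times in SC-APC (95% interval 17.2 to 19.4). The ratio was low in the bone marrow, and the intervals of the spinal cord libraries overlap. Srxn1 relative to its substrate Prdx1 was 0.00810 (95% interval 0.00708 to 0.00921), 0.0506 (95% interval 0.0478 to 0.0535) and 0.0353 (95% interval 0.0331 to 0.0376). All 3 intervals lie apart. Slc7a11 relative to Slc3a2, the heavy chain of its transporter, was 0.0133 (95% interval 0.0101 to 0.0174), 0.0822 (95% interval 0.0794 to 0.0851) and 0.108 (95% interval 0.104 to 0.111), so that the heavy chain, which also serves other amino acid transporters, was the more abundant in every library. On reads alone, without length correction, this ratio was 0.0410, 0.422 and 0.4995. Gclm stood at 2.97 (95% interval 2.71 to 3.26), 3.68 (95% interval 3.33 to 4.06) and 2.76 (95% interval 2.52 to 3.02) times Gclc. The Gclm and Gclc ratio on reads alone was 1.26, 1.22 and 1.03, where BM-Mono and SC-Mono were the closer pair.

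**Figure D4:**
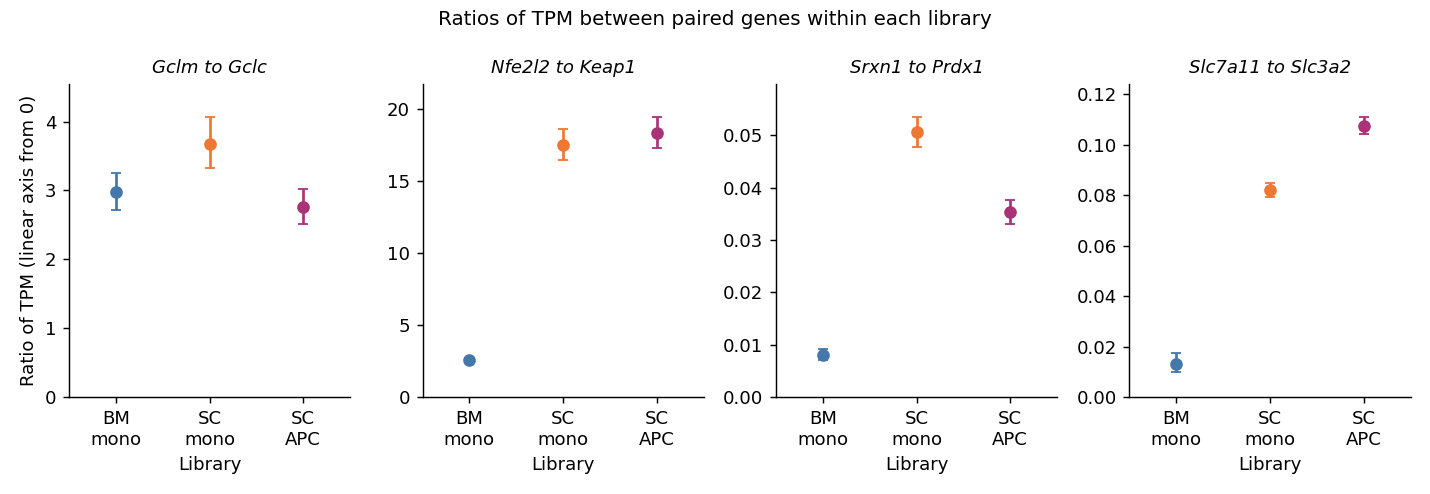
Ratio of TPM of paired genes within each library (BM, bone marrow; SC, spinal cord), on linear axes from 0 with 95% exact binomial intervals of counting error. The Nfe2l2 to Keap1 ratio is 2.58 in BM-Mono and 17.5 and 18.3 in the spinal cord libraries, whereas the Gclm to Gclc ratio ranges from 2.76 to 3.68.

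A wider list of 96 genes around NRF2 was compared by role, of which 95 were measured and 75 were active from BM-Mono to SC-Mono. Of these 75, 17 were called higher and 15 lower, which is 42.7% called beside 24.4% of all active genes (13.8% higher and 10.7% lower), and the median log2 change was -0.31. The counts by role that follow are small and stand beside these same shares of all active genes. The list thus divided between both directions, unlike the 10 genes, and both were chosen with earlier results of these data known. The split moved with the scale, with 16 called higher and 18 lower on total reads, and 16 and 27 on TPM plus 1. Genes named below outside the naming rule belong to a count of 5 or fewer and were chosen after their values were seen.

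Of 12 active regulators, 4 were called higher and 0 lower, or 33.3% called beside 24.4% of all active genes. Maff and Mafk encode small MAF partners of NRF2. Maff went from 33 to 6783 reads, or from 0.919 to 214 TPM, with a log2 change of 8.14 (98% interval 7.59 to 8.76). Mafk went from 17.7 to 114 TPM, with 3.08. Sqstm1, which encodes the KEAP1-binding autophagy receptor p62, went from 130 to 536 TPM, with 2.17. The fourth was Bach2, with 2.62. Bach1, the repressor of Hmox1, stood at 89.1 TPM in both monocyte libraries and at 36.7 TPM in SC-APC. It was 1 of 2 list genes called lower from SC-Mono to SC-APC, with a log2 change of -1.29 (98% interval -1.35 to -1.23). The Bach1 reads were 10631, 9457 and 4302.

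The 8 active heme and iron genes had 4 called higher and 0 lower in the first step, or 50% called beside 24.4%. Fth1 and Ftl1 encode the heavy and light chains of ferritin, which stores iron. Fth1 went from 19640 to 250406 reads, or from 1333 to 19719 TPM, a log2 change of 4.15 (98% interval 4.13 to 4.18), and reached 28659 TPM in SC-APC. Ftl1 went from 4029 to 7289 TPM, with 1.16. Alas1, the first enzyme of heme synthesis, rose by 2.33 and Blvrb, a biliverdin reductase, by 1.69 on the log2 scale. Ferritin genes have processed pseudogenes, and reads could be split among them. The transcript set of SC-APC also differed, and its part in the level of Fth1 was not tested.

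The 15 active thioredoxin genes had 5 called higher, Prdx6 (1.63), Prdx5 (1.51), Glrx (1.41), Txn1 (1.35) and Sesn2 (1.74) by log2 change, and 1 lower, Prdx4 (-1.23). This is 40% called beside 24.4% of all active genes. Prdx5 was the most abundant, at 1799.9 TPM in BM-Mono, 4273 TPM in SC-Mono and 2750 TPM in SC-APC. Prdx6 had levels of 314, 780.5 and 441 TPM. As for Txnrd1 and Srxn1, the level of both was highest in SC-Mono. From these to SC-APC, Prdx5 and Prdx6 had log2 changes of -0.76 and -0.76 and Txn1 of -0.71, none of them called. Msrb1, a selenium-containing methionine sulfoxide reductase, was at 1137, 661 and 412 TPM.

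The 15 other active glutathione genes had 2 called higher and 5 lower, or 46.7% called beside 24.4%. Slc3a2 rose from 52.3 to 443 TPM, with a log2 change of 3.46 (98% interval 3.37 to 3.56), and Gstm5 from 10 to 39 reads, with 2.38 (98% interval 1.29 to 3.64). At 3.01 TPM in SC-Mono, Gstm5 was just over the threshold for active genes, and its call was lost at a threshold of 4 TPM. Those called lower were Gsr, glutathione reductase, at -1.83 (656 to 145 TPM), Gstm1 at -1.99, Gpx3 at -1.49, Mgst2 at -1.49 and Abcc4 at -1.45. Gpx1, the most abundant of them, stood at 2632 and 1086 TPM with a log2 change of -0.98, and Mgst1 at 896 and 447 TPM with -0.79, and neither was called. Reads can be split between Gstm1, Gstm5 and other paralogs of this family.

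Of the 9 active NADPH supply genes 0 were called higher and 4 lower, Idh1 at -2.67, Me2 at -2.37, Nnt at -1.91 and G6pdx at -1.82, or 44.4% called beside 24.4% of all active genes. Idh1, the cytosolic isocitrate dehydrogenase, fell from 353 to 44.7 TPM. The pentose phosphate genes Taldo1 and Tkt had log2 changes of -0.73 and -0.40 and were not called. Of 5 active superoxide and peroxide genes, Sod1 (-1.22) and Cat (-1.13) were called lower and none higher, or 40% called. Sod1, the cytosolic superoxide dismutase, stood at 955, 295 and 306 TPM in BM-Mono, SC-Mono and SC-APC. Its reads were 8138, 2505 and 2530. The cytosolic and the mitochondrial enzyme thus went in opposite directions, since the log2 change of Sod2 was 2.97. Ucp2 was at 2070.2 and 1368 TPM, with -0.29.

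The list of quinone, carbonyl and other targets had 11 active genes, of which Cd36 (3.08) and Osgin1 (1.69) were called higher and Nqo2 (-2.24), Aldh2 (-1.58) and Ugdh (-1.23) lower, or 45.5% called beside 24.4%. Esd was not called, at 0.61. Nqo1, the best-known NRF2 target and named here for that reason, had 13, 24 and 12 reads in BM-Mono, SC-Mono and SC-APC, at most 0.970 TPM and under the threshold in every library. The summed neutrophil markers, given above, were lower in SC-Mono than in BM-Mono, although Cxcr2 was higher. Their part in the genes called lower was not tested.

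**Figure D5:**
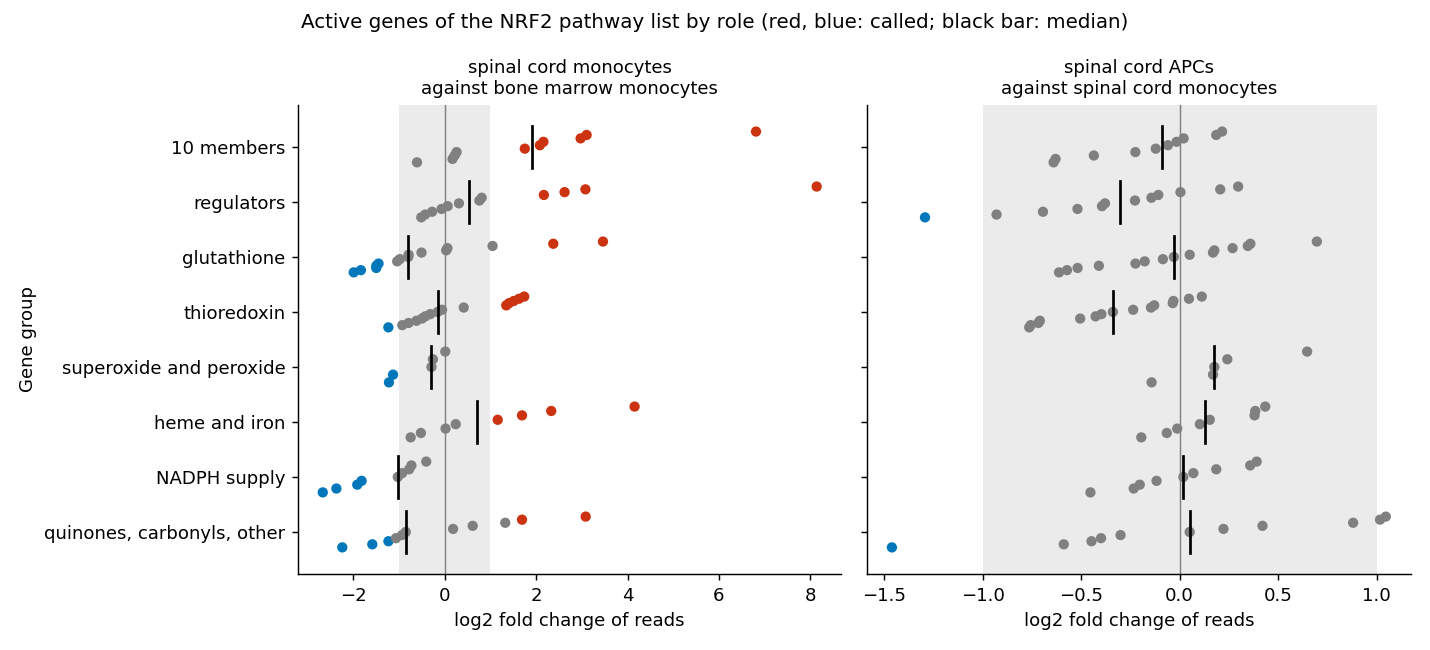
Log2 change of reads of the active genes among the 10 members and the wider list, by role, from BM-Mono to SC-Mono (left) and from these to SC-APC (right). Each point is a gene, red and blue points are called higher and lower, black bars are medians and the grey band marks a 2-fold change. Heme and iron genes hold 4 red and 0 blue points in the left panel and NADPH supply genes 0 red and 4 blue, whereas the right panel has 2 blue points in all.

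From SC-Mono to SC-APC, 75 genes of the wider list were active, 0 were called higher and 2 lower, Bach1 and Trim16. This is 2.67% called beside 3.63% of all active genes, and the median log2 change of the list was -0.08. Trim16 went from 490 to 198 reads, a log2 change of -1.46 (98% interval -1.75 to -1.18). Cd36, a scavenger receptor for lipids, had 459 and 1058 reads, with 1.05 (98% interval 0.86 to 1.24), and was called on length-corrected reads, at 1.51. From BM-Mono to SC-APC, 16 of 75 were called higher and 19 lower, or 46.7% called beside 25.8% of all active genes (14.0% higher and 11.8% lower), and on total reads 12 and 23. By the interval bound nearest to 0, Maff (7.44), Fth1 (4.54), Cd36 (4.13) and Slc3a2 (3.43) came first among those called higher, and Me2 (-2.57), Idh1 (-2.48), Gsr (-2.24) and Trim16 (-2.31) among those called lower. Gstt1, named after its values were seen, had a log2 change of 5.38 with a wide 98% interval of 3.33 to 8.89, from 1 read in BM-Mono and 55 in SC-APC.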

How the data were processed

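The 3 libraries were sequenced and quantified by the authors with Salmon 0.14.1 on GENCODE vM22 (mm10). TPM, as deposited by the authors, is normalized for effective length and library size. The deposited estimated counts of reads are not normalized, and were rounded here to whole reads. The SC-APC values cover 22242 genes and the monocyte values 54432, and the 22238 common genes were used. Identifiers were matched by version to GENCODE M21 (GRCm38) for symbols and coordinates, with 99.0% of common genes found.

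The study defined differential expression by GFold. Here a calculation of the same kind was written, and GFold itself was not run. The log2 fold change of reads plus 1 was the median of a ratio of gamma distributions, with percentiles 1 and 99, scaled by size factors from the 3 libraries. The study set its threshold for active genes on log2 TPM, not on rescaled TPM. Its counts of called genes differ. From BM-Mono to SC-Mono it reported more genes lower than higher, whereas here more were higher. No edgeR or DESeq2 test is possible with 1 library per population, and edgeR 4.0.16 (R 4.3.3) was used for TMM factors only. The calls were run on simulated libraries with counting error only, in which changes were planted in 200 well-counted active genes. This is the model behind the calls, so it does not cover spread between libraries or a difference in transcript set. TPM has 95% Wilson intervals and ratios exact binomial intervals, which cover counting error only.

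The 10 genes, the wider list and the cell markers were chosen with earlier results of these data known. Beside the 10 genes, the text names from the wider list the 4 called genes with the interval farthest from 0 per direction and comparison, the 2 of highest level in each role, and Slc3a2. Results were recomputed with a TPM threshold of 4, without one, on total reads, on TMM factors, on length-corrected reads, with an assumed coefficient of variation of 0.2 or 0.4, with 0.5 reads added, on TPM plus 1 or 0.1 with a plain 2-fold change, on all genes of both monocyte libraries and, added after the data were seen, size factors from the 2 libraries compared. Scripts ran in Python 3.11.15 with scipy 1.17.1, pandas 2.3.3, numpy 2.4.6 and, for plots, matplotlib 3.10.9.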

Additional observations from a re-analysis of the deposited data

How the results depend on the processing

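The 12 called fold changes of the 10 genes kept their direction under every alternative run for them. There were 12 alternatives from BM-Mono to SC-Mono and 11 from BM-Mono to SC-APC. A TPM threshold or an assumed coefficient of variation leaves the fold change itself unchanged, so direction was fixed in advance in those settings. The 12 fold changes kept their call in 121 of 138 recomputations. Of 202 recomputations of the 18 uncalled fold changes, 4 brought a call. No paired analysis was possible because each population was 1 library. Each count below is given higher then lower unless 1 direction is named. From BM-Mono to SC-Mono the 10 genes gave 6 and 0, the wider list 17 and 15 and all active genes 1386 and 1073. A coefficient of variation of 0.2 gave 8 and 4 for the list and 910 and 445 for all genes, and 0.4 gave 3 higher for the 10 genes, 5 and 0 for the list and 622 and 218 for all genes. TPM plus 1 gave 27 lower for the list, and 1315 and 1890 for all genes, and TPM plus 0.1 gave 28 lower and 1391 and 2137. Total reads gave 16 and 18 for the list and 1239 and 1394 for all genes, and no TPM filter 2623 higher. From SC-Mono to SC-APC the 10 genes gave 0 and 0, the list 0 and 2 and all genes 188 and 165. Length-corrected reads gave 1 of the 10 genes lower (Sod2), 1 list gene higher (Cd36) and 320 of all genes lower, which follows from the lengths that enter the ratio. TPM plus 1 gave 1 lower, 1 higher and 528 lower for the same 3 counts, and TPM plus 0.1 gave 1, 1 and 617, with 351 of all genes higher. A coefficient of variation of 0.2 gave 0 list genes lower and 83 and 35 for all genes, and 0.4 gave 0 and then 41 and 14. No TPM filter gave 385 and 292. From BM-Mono to SC-APC the 10 genes gave 6 and 0, the list 16 and 19 and all genes 1426 and 1199. A coefficient of variation of 0.2 gave 9 and 5 for the list and 488 of all genes lower, and 0.4 gave 1 of the 10 genes higher, 5 and 0 for the list and 714 and 222 for all genes. TPM plus 1 gave 1315 and 2433 of all genes, TPM plus 0.1 gave 1 of the 10 genes lower (Keap1, at -1.03), 29 of the list lower and 1381 and 2682 of all genes, and total reads gave 12 and 23 for the list and 1312 and 1448 for all genes. No TPM filter gave 2870 of all genes higher. The intervals widen by construction where a coefficient of variation is assumed, and for the other settings the cause was not tested. At 58 reads, the bone marrow count of Slc7a11 limits the precision of its fold change.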

Other observations

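Several NRF2 targets that are widely used as readouts in other cell types were close to absent in these monocytes. Of the genes below, all of which were chosen after their values were seen, none reached 3 TPM in BM-Mono or SC-Mono. Aldh3a1 and Adh7 had 0 reads in every library. Me1, the cytosolic malic enzyme, had 1, 24 and 9 reads in BM-Mono, SC-Mono and SC-APC, and Akr1b8, an aldo-keto reductase, had 1, 15 and 11. Gsta4, a glutathione transferase, had 3, 25 and 15 reads. Ephx1, the microsomal epoxide hydrolase, had 14, 46 and 92 reads, and Gstt1 had 1, 24 and 55, so that both were highest in SC-APC. The order of counts as low as 1 to 3 reads carries a large counting error.

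The other cell markers gave these summed levels in BM-Mono, SC-Mono and SC-APC. The 8 monocyte markers were at 11135, 9631 and 3948 TPM, and the 6 antigen-presenting cell markers at 181, 8677 and 21553 TPM. The monocyte sum includes Ly6c2, at 5205, 3602 and 1067 TPM, and low or absent Ly6C defined SC-APC in the sort. Itgam was nearly level, at 485, 533 and 510 TPM. Csf1r went the other way, at 374, 676 and 1134 TPM, and was the only monocyte marker higher in SC-APC than in SC-Mono. The 6 markers of CNS-associated macrophages were at 15.7, 36.8 and 51.1 TPM, and the 6 of conventional dendritic cells at 40.8, 21.3 and 28.3 TPM. Flt3, which progenitors also express, made up 37.8, 3.65 and 6.65 TPM of the last sums, while Zbtb46 was at 0.0404, 0.496 and 3.37 TPM and Clec9a at 0.108, 4.38 and 7.40 TPM, both lowest in BM-Mono. The 5 B cell markers were at 8.69, 3.52 and 3.79 TPM. For astrocytes the sums were 6.03, 36.7 and 57.5 TPM, for oligodendrocytes 73.1, 54.7 and 53.1 TPM, and for endothelial cells 17.1, 73.2 and 44.5 TPM, each over 5 markers.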
